A study of Homo sapiens with 40 samples.

Results

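Gene expression after doxycycline-induced Cas9 targeting of IGF2BP2 was measured in 8 of the 40 RNA sequencing libraries of a study of RKO, a cell line from a human colorectal carcinoma. The 8 libraries were chosen by their labels and are 4 replicates of sgIGF2BP2 cells given doxycycline (Dox) and 4 of the same cells given DMSO, its solvent. IGF2BP2 is an RNA-binding protein of the IGF2 mRNA-binding protein family, whose members bind mRNAs in the cytoplasm and affect their stability, transport and translation. They are known from embryonic tissue and from tumours. When Cas9 cuts DNA, the double-strand break can activate p53, which induces genes for cell cycle arrest, repair and apoptosis and indirectly lowers genes that drive replication and mitosis.

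All cells compared here carried a Dox-inducible Cas9, a GFP marker and a lentiviral vector with 2 guide RNAs and a blue fluorescent marker (eBFP2). Per the labels' protocols the marker-positive cells were sorted, and no single clone is mentioned. In sgIGF2BP2 cells both guides target IGF2BP2. Dox was given at 250 ng/mL for 72 hours. Cells of both groups also received the nucleoside s4U at 250 µM for 2 hours before lysis, and 1 well of a plate was used per library. Dox and DMSO libraries of sgAAVS1 cells, whose guides target a non-coding control locus, and of sgIGF2BP3 cells, whose guides target the related gene IGF2BP3, are set beside them (4 libraries a group). So are sgIGF2BP2 cells transfected for 48 hours with 75 nM of an siRNA pool against IGF2BP2 (siIGF2BP2) or of a non-targeting siRNA (siControl), without induction of Cas9.

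The guides define where the coding sequence was cut, so both are shown with the 3 bases of the PAM that Cas9 requires in capitals (5′ to 3′).
IGF2BP2 guide 1: atatgtgacgttgacaacggCGG
IGF2BP2 guide 2: gtgcgctgaggttcaaccctGGG
The gene (ENSG00000073792) occupies chr3:185643739-185825056 in GRCh38 and is read from the reverse strand. Guide 1 matched chr3:185692722-185692741 on the forward strand, in coding exon 5 of the 16 exons of transcript ENST00000382199. Guide 2 matched chr3:185672630-185672649 on the same strand, in coding exon 10. Cas9 cuts between guide bases 17 and 18 of such sites, which falls in codon 122 for guide 1 and codon 365 for guide 2, in a protein of 598 residues. The 2 sites lie 20092 bases apart. The counts per gene do not separate edited from unedited transcripts.

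The 8 libraries held 10018181 to 24822807 counts each, against a median of 13468792 over all 40. The first principal component of their log2 CPM (counts scaled to library size) held 31.6% of the variance and placed the 4 Dox libraries on one side and the 4 DMSO libraries on the other. Dox replicate 2 stood apart from the other Dox libraries in its mitochondrially encoded mRNA, so counts are also given without it. Of 15 colon epithelial markers, EPCAM, CDX2, KRT8 and KRT18 were expressed, while CDH1, VIL1, KRT20, KRT19, CEACAM5 and 5 others had at most 5 counts in any of the 8 libraries. Of 13 mesenchymal markers, VIM and ZEB1 passed the filter on low counts, and 10 had at most 5 counts in any library, of which 9, CDH2, TWIST1 and COL1A2 among them, were at 0 in all 8. The summed epithelial markers spanned 279 to 293 CPM with DMSO and 269 to 304 CPM with Dox. All 8 endothelial markers had at most 5 counts, and 7 of 10 leukocyte markers were at 0, PTPRC and CD3E among them, whereas LCP1 stood at 487 to 544 CPM.

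IGF2BP2 mRNA was lower in every Dox library. It stood at 83.8, 84.0, 86.5 and 86.7 CPM in DMSO replicates 1 to 4 and at 34.5, 33.5, 38.0 and 29.5 CPM in Dox replicates 1 to 4. The groups were far apart, and Dox replicate 2 lay within the range of the other Dox libraries. The mean fell from 85.3 ± 1.58 to 33.9 ± 3.50 CPM (SD, n = 4). On the log2 scale this was −1.34 (SE 0.051, adjusted p = 6.42e-33 in edgeR's test), and siIGF2BP2 gave −1.84.

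IGF2BP3, the paralog with the same domain order, also fell. Its values were 185, 165, 181 and 184 CPM with DMSO and 155, 145, 151 and 153 CPM with Dox, without overlap. The log2 fold change was −0.25 (SE 0.041, adjusted p = 2.93e-06) and −0.23 without Dox replicate 2. MALSU1, a tested gene on the opposite strand, overlaps IGF2BP3, and whether counting used strand is not given in the sources used here. IGF2BP1 had at most 1 count in a library.

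**Figure D1:**
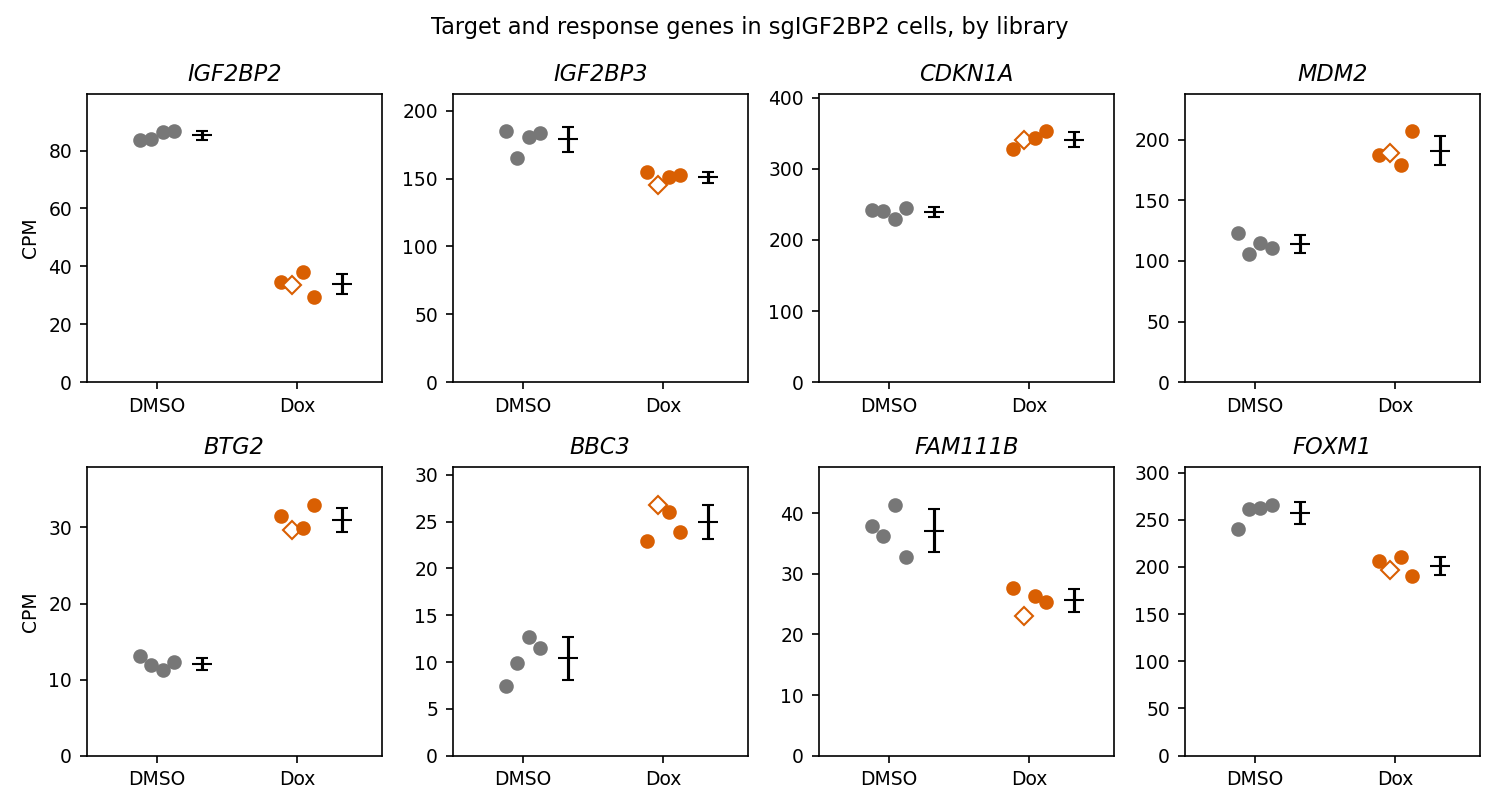
Normalised expression (CPM, linear axis from 0) of 8 genes in the 4 DMSO (grey) and 4 Dox (orange) libraries of sgIGF2BP2 cells, 1 point per library; the open diamond is Dox replicate 2 and the bars give mean ± SD. The Dox points of IGF2BP2 lie between 29.5 and 38.0 CPM and those of BTG2 between 29.7 and 33.0 CPM, apart from all DMSO points.

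Across the transcriptome many genes changed by little. Of 11428 genes tested, 2326 (20.4%) passed edgeR's quasi-likelihood test at a Benjamini-Hochberg adjusted p under 0.05, 1143 higher (10.0%) and 1183 lower (10.4%). The median size of the change among them was 0.21 on the log2 scale. Only 55 (0.481%) changed at least 2-fold, 54 higher and 1 lower, and the one that fell is IGF2BP2 itself. Against a change of at least 1.2-fold, 117 genes were called, 108 higher and 9 lower. Without Dox replicate 2 there were 2070 calls (18.1%; 8.74% higher, 9.37% lower), 999 higher and 1071 lower, of which 1820 were shared with the full set, all in the same direction. The groups did not overlap for 2062 genes (18.0%), of which 1643 were also called (14.4% of all tested). The balance of the directions depended on the processing: with an offset for the GC content and length of the transcripts, 915 genes were higher and 2139 lower. That offset also moved the median log2 fold change of all tested genes from 0.0077 to −0.023, and what shifts the balance was not tested. Higher genes had a median transcript GC content of 54.5% and lower genes one of 45.9%, against 48.3% for all tested genes.

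Among calls whose groups did not overlap and whose mean log2 CPM was at least 2, the highest log2 fold changes were those of ACTA2, BTG2, GDF15, BBC3, MYOF and TP53INP1. Besides IGF2BP2, the lowest under the same limits were those of MNS1, FAM111B, POLE2, KIF15 and THAP11, which fell by 0.47 to 0.56 on the log2 scale. FAM111B, POLE2 and KIF15 belong to DNA replication and mitosis, whereas THAP11 is a transcription factor. SESN1 (log2 fold change 0.96), TMSB4X (0.94), an actin-binding peptide, DDIT4 (0.93), an inhibitor of mTORC1, REEP6 (0.92), IER5L (0.90) and STXBP2 (0.89) came next among the rises under these limits. MNS1 shares bases with TEX9 on the opposite strand, THAP11 with CENPT and REEP6 with PCSK4.

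Most targets of p53 rose. Of 33 tested genes of p53 feedback and arrest, 29 rose and 0 fell, that is 87.9% higher against 10.0% of all tested genes, with a median log2 fold change of 0.45 against 0.0077. At an unadjusted p under 0.05 the counts were 30 and 0, DESeq2 gave 29 and 0, and limma voom with quality weights gave 30 and 0. With the GC and length offset, 29 rose and 1 fell. Without Dox replicate 2, 30 rose, with a median of 0.47. By library, the median of the list against the DMSO mean was −0.0060 to 0.022 in the DMSO libraries and 0.40 to 0.49 in the Dox libraries.

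Among the arrest genes, CDKN1A encodes p21, the inhibitor of cyclin-dependent kinases. It stood at 242, 241, 229 and 245 CPM with DMSO and at 328, 340, 344 and 353 CPM with Dox. All Dox libraries were above all DMSO libraries, and the change was 1.43-fold (log2 0.51, SE 0.033, adjusted p = 1.03e-20). BTG2, an antiproliferative cofactor of mRNA deadenylation, went from 13.1, 11.9, 11.2 and 12.3 CPM to 31.5, 29.7, 29.9 and 33.0 CPM. That rise was 2.58-fold (log2 1.37, SE 0.076, adjusted p = 2.50e-23), with no library of one group near the other. GDF15, a secreted stress cytokine, went from 4.80, 3.60, 3.83 and 3.94 CPM to 8.66, 10.9, 9.33 and 10.6 CPM (2.48-fold, adjusted p = 1.16e-12).

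Most genes of feedback on p53 rose too. MDM2, the ubiquitin ligase that degrades p53, stood at 123, 106, 115 and 111 CPM with DMSO and at 187, 189, 179 and 207 CPM with Dox. The rise was 1.67-fold (log2 0.74, SE 0.046, adjusted p = 2.87e-21) and the groups did not overlap. PPM1D, a phosphatase that reverses DNA damage signalling, rose by 0.33 and CCNG1 by 0.30. MDM4, which inhibits p53 but is less known as its target, had a log2 fold change of −0.06 and was not called.

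Metabolic and repair targets of p53 were among the genes that rose. SESN1, a sestrin that restrains mTORC1, went from 8.11, 5.58, 5.99 and 8.02 CPM to 14.4, 12.8, 11.2 and 14.3 CPM (log2 0.96, adjusted p = 4.60e-10). TP53INP1, an autophagy and cell death cofactor, rose by 1.00. FDXR, the mitochondrial ferredoxin reductase, rose by 0.76, ZMAT3 by 0.67 and RRM2B, a ribonucleotide reductase subunit, by 0.61. The nucleotide excision repair genes DDB2 (0.45) and XPC (0.37) rose with them. SFN, CMBL and LIF were the other members not called, at −0.06, 0.09 and 0.10.

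Of 26 genes of apoptosis and death receptors, 10 rose and 2 fell (median 0.13), or 38.5% higher and 7.69% lower against 10.0% and 10.4% of all tested genes. BBC3, which encodes the BH3-only protein PUMA, stood at 7.45, 9.87, 12.7 and 11.5 CPM with DMSO and at 22.9, 26.8, 26.0 and 23.9 CPM with Dox. The rise was 2.32-fold (log2 1.22, SE 0.099, adjusted p = 9.99e-16), and the spread among the DMSO libraries was wide beside that of the Dox libraries. The death receptor FAS went from 14.9, 18.3, 19.2 and 18.9 CPM to 33.2, 33.9, 29.5 and 33.4 CPM (log2 0.86, adjusted p = 3.07e-16). PMAIP1, another BH3-only gene, rose by 0.50, BAK1 by 0.40 and BAX by 0.38. BCL2L1, which protects cells from apoptosis, rose too, by 0.48, while the protective MCL1 and BCL2 fell by 0.16 and 0.32, the latter not called without Dox replicate 2 (adjusted p = 0.0745).

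ACTA2, smooth muscle actin, had the greatest rise of all named genes. It went from 2.40, 2.83, 3.02 and 4.01 CPM to 9.80, 10.8, 7.72 and 8.24 CPM (log2 1.59, SE 0.16, adjusted p = 8.85e-13). ACTA2 and FAS overlap on opposite strands of chromosome 10, at 88935074 to 88991339 and 88990582 to 89015785, so if strand was not used in counting, reads of the shared bases cannot be assigned to either.

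Most genes of DNA replication fell. Of 50 genes of the G1/S transition and replication, 42 fell and 0 rose (median −0.27), against 10.4% lower among all tested genes. At an unadjusted p under 0.05, 46 were lower and 0 higher, and DESeq2 and voom each gave 42 and 0. Without Dox replicate 2, 44 fell. The library medians of the list were −0.023 to 0.021 with DMSO and −0.27 to −0.24 with Dox. In bulk RNA, fewer cells in a phase of the cycle and less RNA per cell cannot be told apart.

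FAM111B, a protease gene expressed in S phase, stood at 37.9, 36.2, 41.4 and 32.8 CPM with DMSO and 27.7, 23.0, 26.4 and 25.4 CPM with Dox. Its groups did not overlap and the log2 fold change was −0.55 (SE 0.070, adjusted p = 5.05e-09). POLE2, a subunit of DNA polymerase epsilon, went from 22.3, 17.7, 20.2 and 22.5 CPM to 14.5, 13.7, 14.3 and 15.2 CPM (log2 −0.52, SE 0.081, adjusted p = 8.24e-07). Primase (PRIM1) fell by 0.46, the origin recognition subunit ORC1 by 0.39 and all of MCM2 to MCM7 by 0.22 to 0.35. CCNE1, the cyclin of S phase entry, was at −0.01 and not called, and E2F1 fell by 0.16. TK1, TYMS and both RRM1 and RRM2, which supply nucleotides, fell by 0.17 to 0.27.

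Of 50 genes of G2 and mitosis, 38 fell (76.0%, against 10.4% of all tested genes) and 0 rose (median −0.19). Without Dox replicate 2, 34 fell. At an unadjusted p under 0.05 the counts were 39 lower and 1 higher, DESeq2 gave 38 and 0, and voom 36 and 0. FOXM1, a transcription factor of G2 genes, stood at 240, 261, 262 and 266 CPM with DMSO and at 206, 197, 211 and 190 CPM with Dox. Every Dox library was lower, with a log2 fold change of −0.36 (SE 0.034, adjusted p = 2.61e-13). CCNA2, cyclin A2, went from 79.0, 72.5, 78.6 and 77.6 CPM to 63.8, 60.0, 57.4 and 63.4 CPM (log2 −0.33, adjusted p = 9.86e-08). PLK4, the kinase of centriole duplication, fell by 0.40. CDK1 (−0.18) and CCNB1 (−0.15), the pair that drives entry into mitosis, and PLK1 (−0.14) changed less. Of the 12 mitotic genes not called, HMMR (0.31, adjusted p = 0.158) had the highest value.

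Of 50 genes of double-strand break and Fanconi repair, 26 fell (52.0%, against 10.4% of all tested genes) and 0 rose (median −0.19). At an unadjusted p under 0.05, 32 were lower and 1 higher. DESeq2 called 25 lower and 0 higher, voom 27 lower and 0 higher, and the fit with the GC and length offset 32 lower and 1 higher. The homologous recombination gene XRCC2 fell by 0.41, BRCA1 by 0.25 and the exonuclease EXO1, which is also in the replication list, by 0.38. The end-joining genes XRCC5, XRCC6 and PRKDC fell by 0.14 to 0.16.

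Because most replication and mitotic genes fell, their promoters were searched for the 2 elements known for cell cycle repression, and examples are shown with the motif in capitals. Sequences are those of RefSeq (GRCh38.p14), up to 30 bases from the 250 bases before each gene's annotated start. The searched letters were TTTGAA for the CHR element and GCGCGAA or GCGGGAA for the E2F site, on both strands, so a match on the other strand is printed as its reverse complement.
CCNB2, CHR, chr15:59105105-59105134 (+): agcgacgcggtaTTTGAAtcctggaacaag
PLK1, CHR, chr16:23678848-23678877 (+): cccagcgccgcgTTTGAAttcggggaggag
BUB1B, CHR, chr15:40161034-40161063 (+): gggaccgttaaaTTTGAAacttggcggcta
NCAPG, CHR, chr4:17810932-17810961 (+): tcgcgggaattaTTTGAAcgttcgagcggt
CDCA8, CHR, chr1:37692481-37692510 (+): gtgactgtggagTTTGAAttgggtggcggt
ORC1, E2F, chr1:52404425-52404453 (-): cacgccgattgGCGCGAAgttttcttttc
MCM6, E2F, chr2:135876512-135876540 (-): ggtcaggtttgGCGCGAAatctccagctc
PRIM1, E2F, chr12:56752330-56752358 (-): cggccgtgctgTTCCCGCcaattcctgtg
CDT1, E2F, chr16:88803755-88803783 (+): cgggaaatttgGCGGGAAccgcgcccgcc
In CCNB2 and PLK1 the element begins 29 bases before the start, in BUB1B and CDCA8 23 and in NCAPG 35. The E2F letters begin 19 bases before the start in ORC1, 24 in PRIM1, 23 in CDT1 and 86 in MCM6. The 9 were picked as examples among genes that fell, from −0.14 for PLK1 to −0.46 for PRIM1, so their direction reflects that choice. Of the 24 mitotic genes with the CHR letters, 19 fell and 5 were not called: HMMR (0.31), PRC1 (0.073), KIF18A (−0.04), CKS2 (−0.058) and CENPA (−0.15). Of the 19 replication genes with the E2F letters, 18 fell and 1 was not called. In the whole lists, 38 of 50 mitotic genes (76.0%) and 42 of 50 replication genes (84.0%) fell. Whether the letters go with the fall within a list was not tested.

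Promoters in the table were matched by symbol for 9360 of the tested genes, 42 of the mitotic list and 43 of the replication list. The CHR letters occurred in 24 of the 42 mitotic promoters (57.1%), in 1 of the 43 replication promoters (2.33%), in 8.11% of tested genes and in 13.6% of all 27305 promoters. The E2F letters occurred in 19 of 43 replication promoters (44.2%), in 8 of 42 mitotic promoters (19.0%), in 12.4% of tested genes and in 7.31% of all promoters. Among all genes that fell, whatever their list, the E2F letters stood in 21.0% of 993 promoters and the CHR letters in 11.5%. Among genes that rose the shares were 9.10% and 7.02% of 912 promoters. The CCAAT box (CCAAT, either strand), a general promoter element, stood in 73.8% of the mitotic and 35.6% of the tested promoters. A match describes the letters in this window and is no measured binding site.

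**Figure D2:**
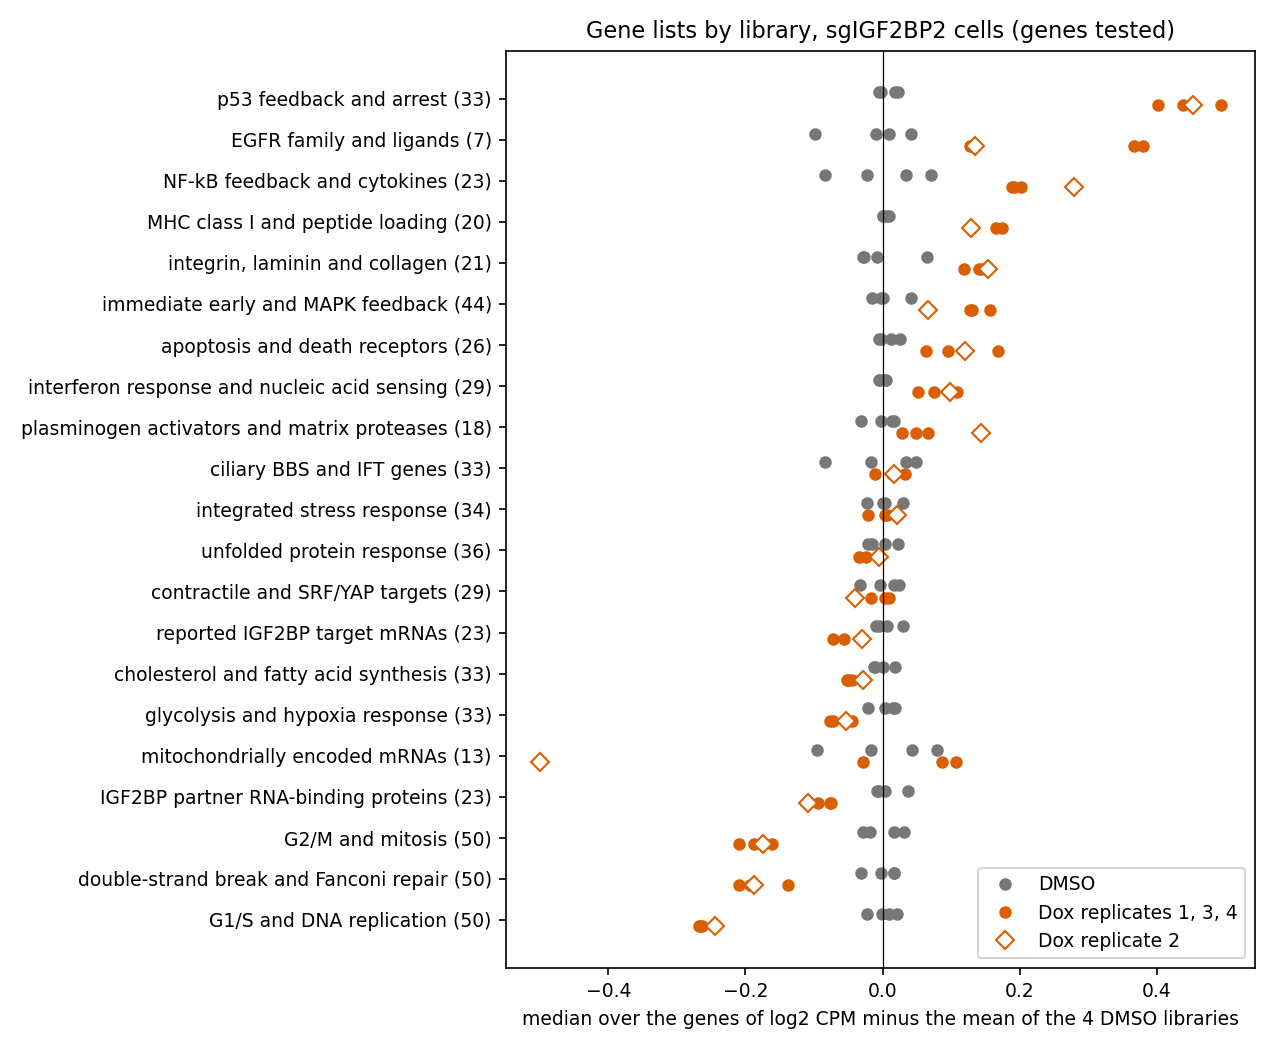
Median over the tested genes of each list of log2 CPM minus the mean of the 4 DMSO libraries, for each library of sgIGF2BP2 cells; grey points are DMSO, orange points Dox replicates 1, 3 and 4, the open diamond Dox replicate 2, and list sizes are in brackets. The p53 list separates to 0.40 to 0.49 and the replication list to −0.27 to −0.24, while Dox replicate 2 departs from the other Dox libraries in the mitochondrially encoded mRNAs.

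Growth factor signalling genes rose in part. Of 44 immediate early and MAPK feedback genes, 14 rose and 5 fell (median 0.14), or 31.8% higher and 11.4% lower against 10.0% and 10.4% of all tested genes. DUSP5, a nuclear phosphatase of ERK, went from 54.6, 53.9, 52.0 and 59.5 CPM to 87.8, 72.1, 82.7 and 90.9 CPM. The groups did not overlap, Dox replicate 2 was the lowest Dox library, and the log2 fold change was 0.60 (SE 0.056, adjusted p = 3.05e-13). The related phosphatase DUSP6 rose by 0.35 and SPRY2, an inhibitor of receptor tyrosine kinase signalling, by 0.47. IER5L, an immediate early response gene, rose by 0.90 and FOSB, an AP-1 subunit, by 0.59. EGR1, an early response transcription factor, fell by 0.19.

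MYC, a proto-oncogene and a reported IGF2BP target, stood at 363, 355, 362 and 369 CPM with DMSO and at 450, 367, 415 and 418 CPM with Dox. Dox replicate 2 was within the DMSO range and the other 3 Dox libraries were above it. The log2 fold change was 0.19 (SE 0.042, adjusted p = 5.62e-04), and 0.24 without Dox replicate 2. Of 7 tested genes of the EGFR family and its ligands, 2 rose (28.6%, against 10.0% of all tested genes). They were ERRFI1, a feedback inhibitor of the receptor (0.48), and the ligand HBEGF (0.43), and the other 5 were not called.

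Of 23 tested NF-kB feedback and cytokine genes, 11 rose and the other 12 were not called (median 0.22). That is 47.8% higher, against 10.0% of all tested genes. IL11, a cytokine of the IL-6 family, went from 13.2, 16.6, 16.1 and 16.8 CPM to 26.4, 27.6, 25.5 and 24.1 CPM (log2 0.72, adjusted p = 2.09e-10). NFKBIZ, a nuclear cofactor of NF-kB, stood at 43.3, 39.2, 38.5 and 45.0 CPM with DMSO and at 69.0, 53.9, 60.4 and 72.8 CPM with Dox (log2 0.63, adjusted p = 2.47e-10). In both genes the groups were separate. BIRC3, which inhibits apoptosis, rose by 0.58.

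Matrix and adhesion genes included several rises. Of 18 plasminogen activator and protease genes, 6 rose (33.3%, against 10.0% of all tested genes) and 12 were not called (median 0.073). PLAU, urokinase, went from 13.1, 12.7, 12.6 and 14.4 CPM to 22.3, 22.3, 24.1 and 23.2 CPM, a 1.74-fold rise (log2 0.80, SE 0.083, adjusted p = 9.00e-12). The Dox libraries of PLAU were tightly grouped and clear of the DMSO libraries. Of 21 integrin, laminin and collagen genes, 8 rose (38.1%, against the same 10.0%) and 13 were not called (median 0.15). Among them were the basement membrane proteoglycan AGRN (0.29), COL6A1 (0.30) and the laminin receptor subunit ITGA3 (0.23). CD44, the hyaluronan receptor and a reported IGF2BP target, rose by 0.28.

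Contractile genes split. Of 29 contractile and SRF or YAP target genes, 7 rose (24.1%) and 9 fell (31.0%), with a median of −0.022. Of all tested genes, 10.0% rose and 10.4% fell. Without Dox replicate 2, 5 of the 29 rose and 5 fell (median 0.020). CYR61, a matricellular protein, went from 107, 114, 118 and 117 CPM to 167, 165, 180 and 172 CPM (log2 0.58, SE 0.038, adjusted p = 6.85e-20). CALD1, which binds actin, rose by 0.28, whereas the tropomyosins TPM3 and TPM4 fell by 0.28 and 0.23. TAGLN, transgelin, went from 13.4, 15.1, 13.6 and 12.5 CPM to 15.3, 18.2, 16.7 and 15.9 CPM (log2 0.28, adjusted p = 0.00819). Its groups were close, and without Dox replicate 2 the change was 0.22 and not called (adjusted p = 0.0788). TAGLN shares bases with PCSK7 on the opposite strand.

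Of 20 MHC class I and peptide loading genes, which serve antigen presentation, 8 rose and 12 were not called (median 0.18). Of all tested genes, 10.0% rose. In sgAAVS1 cells 4 of the 20 rose after Dox and 0 fell (median 0.077), against 7.25% higher among all tested genes there. After siIGF2BP2, 11 rose and 2 fell (median 0.19), against 18.4% each way. HLA-E, a nonclassical class I molecule, stood at 43.1, 42.1, 41.8 and 43.0 CPM with DMSO and 52.2, 56.8, 53.4 and 52.7 CPM with Dox (log2 0.34, adjusted p = 3.14e-06). HLA-F rose by 0.37 and the peptidase ERAP2 by 0.28. HLA genes are close paralogs, so their counts are uncertain. Of 29 interferon response and nucleic acid sensing genes, 4 rose and 3 fell (median 0.083, and 0.038 without Dox replicate 2). These shares, 13.8% higher and 10.3% lower, are near the 10.0% and 10.4% of all tested genes. SP110 rose by 0.53, although it overlaps SP140 on the opposite strand, and CGAS, the sensor of cytosolic DNA, fell by 0.18.

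The series concerns the unfolded protein response, in which misfolded protein in the endoplasmic reticulum activates IRE1, ATF6 and PERK. Of 36 genes of that response, 4 rose and 7 fell (median −0.010). The share higher, 11.1%, is near the 10.0% of all tested genes, and the share lower is 19.4% against 10.4%. HSPA5, its main chaperone, was at 1430 CPM in each DMSO library to 3 digits and at 1430, 1500, 1480 and 1480 CPM with Dox. The log2 fold change was 0.042 (SE 0.028, adjusted p = 0.317). ERN1, which encodes IRE1, rose by 0.33, DNAJB9 by 0.31 and HERPUD1 by 0.24, while the folding enzymes P4HB and PDIA6 fell by 0.13 and 0.10. XBP1 was called at 0.15 (adjusted p = 0.0195), but not without Dox replicate 2, DMSO replicate 2 or DMSO replicate 4 (adjusted p = 0.0818, 0.0587 and 0.0616).

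The integrated stress response, which raises ATF4 translation, was also mixed: of 34 genes 6 rose and 7 fell (median −0.0034), or 17.6% higher and 20.6% lower against 10.0% and 10.4%. ATF4 mRNA stood at 188, 198, 200 and 203 CPM with DMSO and at 192, 204, 209 and 200 CPM with Dox (adjusted p = 0.690). DDIT3, which encodes CHOP, had a log2 fold change of 0.17 (adjusted p = 0.134). DDIT4 (0.93) and SESN2 (0.59), members that rose, are also known p53 targets, and CEBPB rose by 0.49. The serine synthesis gene PHGDH fell by 0.31.

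Metabolic lists are likewise set against the 10.0% higher and 10.4% lower of all tested genes. Of 33 cholesterol and fatty acid synthesis genes 2 rose (6.06%) and 5 fell (15.2%; median −0.060), with MSMO1 at 0.28, TM7SF2 at 0.34 and FDPS at −0.22. Of 33 glycolysis and hypoxia genes 4 rose (12.1%) and 7 fell (21.2%; median −0.062). LDHA, lactate dehydrogenase A, fell by 0.29, while the hypoxia-responsive NDRG1 and ADM rose by 0.30 and 0.32. Of 33 ciliary genes 2 rose (6.06%) and 1 fell (3.03%).

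A pair of lists concerned the family's own RNA biology. Of 23 RNA-binding proteins reported to act with IGF2BPs, 1 rose (4.35%) and 9 fell (39.1%), with a median of −0.073. Of all tested genes, 10.0% rose and 10.4% fell. Without Dox replicate 2, 1 of the 23 rose and 6 fell. IGF2BP3 itself is a member of this list and among the 9 that fell. In the difference from sgAAVS1 cells, 4 of the 23 were called lower and 0 higher (median −0.031). Of all tested genes, 2.97% were lower and 4.01% higher in that difference. HNRNPU, a nuclear matrix protein, went from 887, 886, 906 and 878 CPM to 736, 730, 766 and 765 CPM (log2 −0.25, SE 0.030, adjusted p = 1.24e-09). HNRNPA2B1, a reader of modified RNA, went from 1460, 1490, 1510 and 1480 CPM to 1240, 1300, 1270 and 1280 CPM (log2 −0.22). Neither overlapped between groups, and each shares bases with a gene on the opposite strand, COX20 and CBX3.

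Of 23 reported IGF2BP target mRNAs, 5 rose (21.7%) and 9 fell (39.1%), with a median of −0.055. The shares of all tested genes were 10.0% and 10.4%. Without Dox replicate 2, 6 of the 23 rose and 9 fell. HMGA1, a chromatin architectural protein, went from 3930, 4290, 4170 and 4250 CPM to 3480, 3080, 3560 and 3400 CPM (log2 −0.30, SE 0.036, adjusted p = 8.36e-10). MKI67, the proliferation antigen, stood at 530, 560, 546 and 540 CPM with DMSO and at 450, 347, 447 and 446 CPM with Dox. Dox replicate 2 was far below the other 3, and the log2 fold change was −0.37 with it and −0.28 without it (adjusted p = 2.22e-08 and 8.62e-07). CCND1 and CCND2, the D cyclins of G1, rose by 0.14 and 0.20.

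Genes on the arm that carries the cut were also examined. Between IGF2BP2 and the end of 3q, 48 genes were tested, and 3 rose and 10 fell (20.8% lower, against 10.4% of all tested genes). Their median log2 fold change was −0.078, and 33 of 48 were negative. Without Dox replicate 2 the median was −0.067, with 4 higher and 8 lower. The 44 genes within 10 Mb on the centromere side had a median of 0.018, with 2 higher and 2 lower. In sgAAVS1 cells the same 48 genes had a median of 0.061, and in sgIGF2BP3 cells one of 0.014.

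By library the median of those 48 genes, against the DMSO mean, was 0.045, −0.027, 0.0070 and −0.011 with DMSO. With Dox it was −0.042, −0.093, −0.13 and −0.0060, so Dox replicate 4 lay within the DMSO range and the other 3 below it. RFC4, a clamp loader subunit that is also in the replication list, fell most (log2 −0.37), and the splicing regulator TRA2B also fell (−0.22). RFC4 shares bases with EIF4A2 on the opposite strand. HES1, a Notch target, and MELTF rose by 0.62 and 0.38. The Dox effect of sgIGF2BP2 minus that of sgAAVS1 cells was called lower for 6 of the 48 and higher for 0, with a median of −0.13, and these were the counts without Dox replicate 2 too. With all libraries that is 12.5% lower, against 2.97% of all tested genes, of which 4.01% were called higher. Whether the shift of this stretch bears on the calls of single genes there was not tested.

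**Figure D3:**
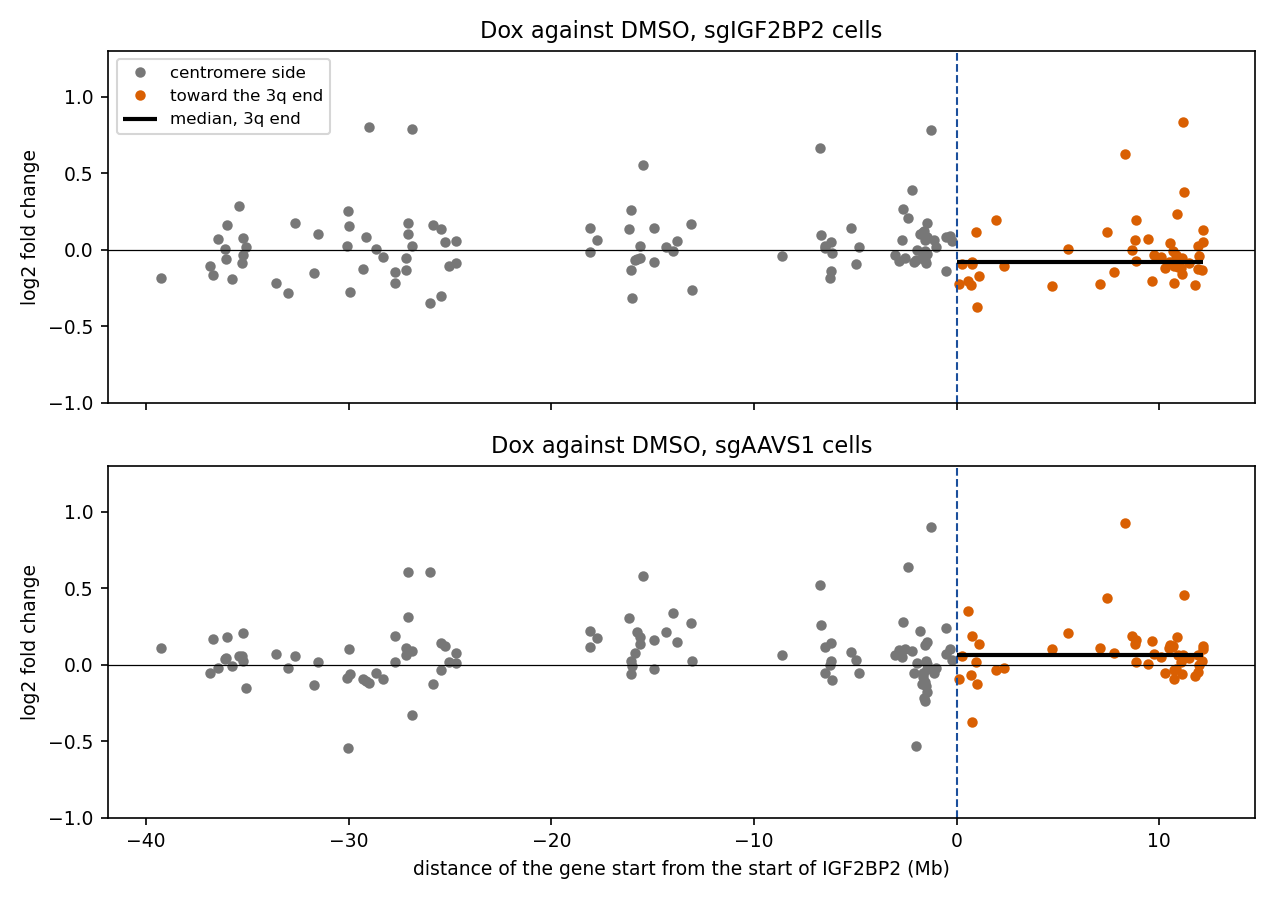
Log2 fold change, Dox against DMSO, of tested genes on chromosome 3 within 40 Mb of IGF2BP2 on the centromere side and to the 3q end, by distance of the gene start from that of IGF2BP2 (dashed line; IGF2BP2 itself is left out), in sgIGF2BP2 (top) and sgAAVS1 cells (bottom). The black bar is the median of the 48 genes toward the 3q end, −0.078 in sgIGF2BP2 and 0.061 in sgAAVS1 cells.

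The control line shows which responses followed Dox and cutting at another locus. In sgAAVS1 cells 1820 genes were called (15.9%; 7.25% higher, 8.68% lower). The p53 list had 15 of 33 genes higher and 1 lower there (median 0.18), the replication list 20 of 50 lower and 0 higher (median −0.12) and the mitotic list 9 of 50 lower and 0 higher (median −0.022). The apoptosis and death receptor list had 11 of 26 higher and 1 lower there (median 0.12). The NF-kB list had 6 of 23 higher and 1 lower (median 0.17). In sgIGF2BP3 cells 302 genes were called (2.64%; 1.64% higher, 1.01% lower), and the p53 list had 10 higher (median 0.17), the replication list 2 lower and the mitotic list 5 lower.

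The difference between the Dox effects of sgIGF2BP2 and sgAAVS1 cells was itself tested, and 797 genes were called (6.97%; 4.01% higher, 2.97% lower). Of the p53 list 16 of 33 were higher in sgIGF2BP2 cells, and none was called lower in edgeR's test. They include BTG2 (difference 0.92, SE 0.11, adjusted p = 9.63e-09), SESN2 (0.74), GADD45A (0.56), MDM2 (0.38) and CDKN1A (0.34). The count without Dox replicate 2 was also 16. FDXR and PPM1D, 2 of the 16, lie beyond the gene SPOP on the long arm of chromosome 17 (17q). The other 14 of the 16 lie elsewhere. The 250 tested genes of that stretch of 17q had medians of −0.17 in sgAAVS1 and 0.017 in sgIGF2BP2 cells. Of all genes called higher for the difference, 86 lie in the stretch and 372 elsewhere, so part of these calls goes with a fall in the control line. GDF15 (difference 0.058, adjusted p = 0.899) and TP53INP1 (0.054, adjusted p = 0.897) were not called: both rose in sgAAVS1 cells, by 1.25 and 0.95. Of the apoptosis list 4 of 26, of the NF-kB list 3 of 23 and of the MHC class I list 1 of 20 were called higher for the difference. In these lists 0 were called lower, and without Dox replicate 2 the higher counts were 4, 2 and 0.

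Of the replication list 14 of 50, and of the mitotic list 13 of 50, were called lower in sgIGF2BP2 than in sgAAVS1 cells, and 12 and 13 without Dox replicate 2. FAM111B and POLE2 each differed by −0.44, CENPF by −0.32, CCNA2 by −0.27 and FOXM1 by −0.19. Against sgIGF2BP3 cells, with 333 genes called (2.91%; 1.23% higher, 1.69% lower), 10 genes of the p53 list were called higher, 24 of the replication list lower and 3 of the mitotic list lower. CDKN1A differed there by 0.41 and MDM2 by 0.56 (adjusted p = 2.61e-09 and 5.83e-09).

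Several signalling and adhesion genes went in opposite directions in the 2 lines. MYC rose by 0.19 in sgIGF2BP2 cells and fell by 0.41 in sgAAVS1 cells, a difference of 0.59 (SE 0.059, adjusted p = 1.51e-11). PLAU rose by 0.80 and fell by 0.38 (difference 1.18, SE 0.13, adjusted p = 1.76e-10). DUSP5 and DUSP6 fell in sgAAVS1 cells, by 0.20 and 0.34, and the differences were 0.80 and 0.69. PDP1, a phosphatase that activates pyruvate dehydrogenase, rose by 0.69 and fell by 0.34 (difference 1.03). TAGLN and CALD1 rose more in sgAAVS1 cells, by 0.99 and 0.79, which gave differences of −0.71 and −0.51. HNRNPU fell by 0.25 and 0.084, a difference of −0.16 (adjusted p = 0.00895).

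**Figure D4:**
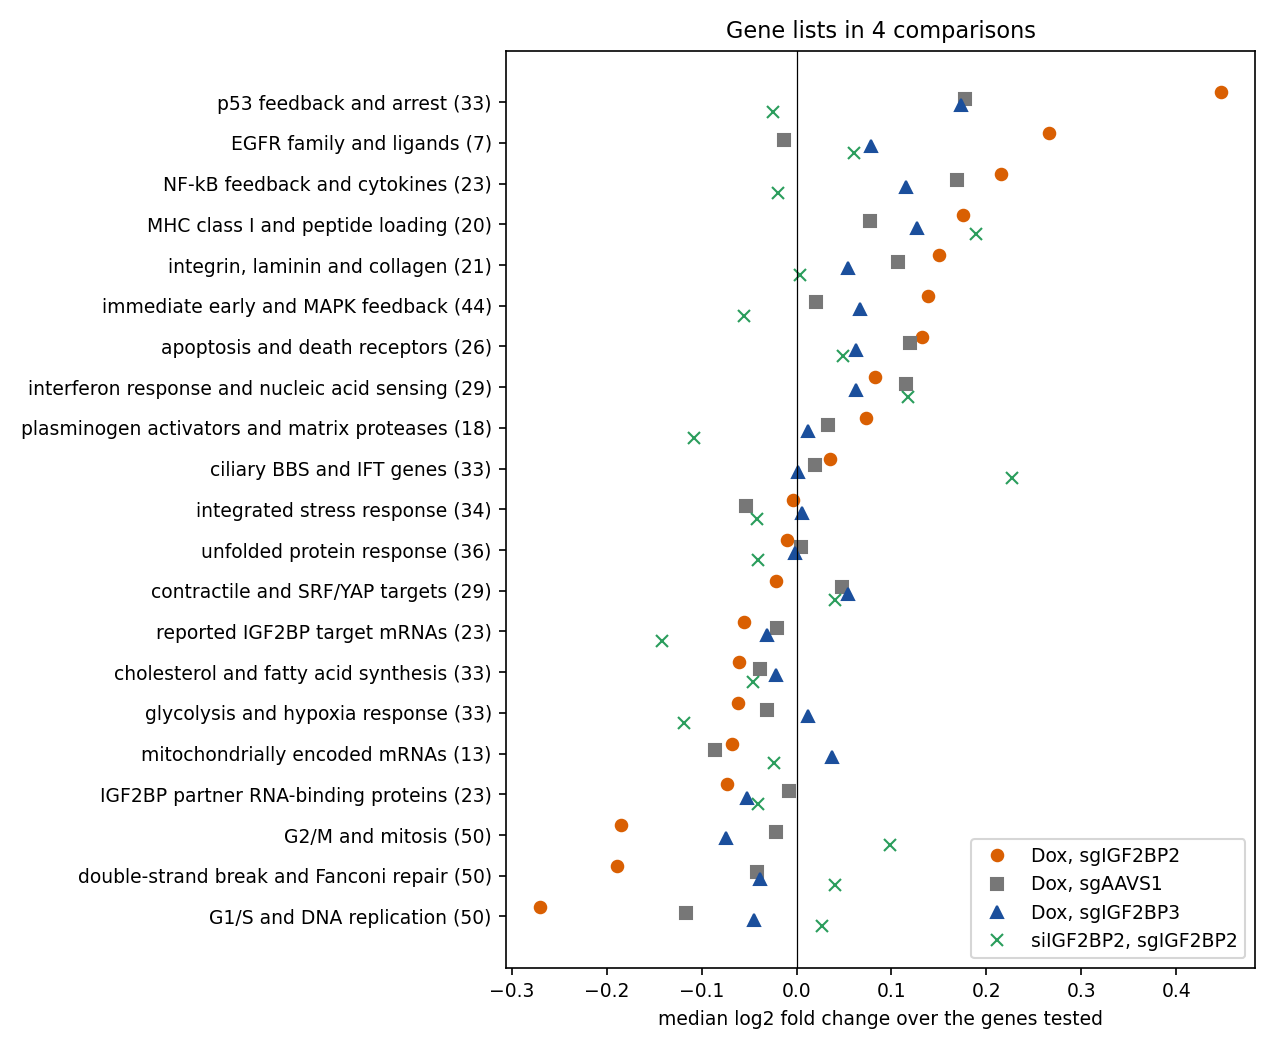
Median log2 fold change over the tested genes of each list in 4 comparisons: Dox against DMSO in sgIGF2BP2 (circles), sgAAVS1 (squares) and sgIGF2BP3 cells (triangles), and siIGF2BP2 against siControl (crosses); list sizes are in brackets. For the p53 list the medians are 0.45, 0.18, 0.17 and −0.025 in that order.

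Depletion by siRNA of the same mRNA in the same line gave another pattern. The siRNA comparison called 4202 genes (36.8%), with 18.4% of tested genes higher and 18.4% lower. Of the p53 list 7 rose and 10 fell (median −0.025), of the replication list 11 rose and 6 fell (median 0.026) and of the mitotic list 20 rose and 5 fell (median 0.098). CDKN1A fell by 0.38 and MDM2 was at 0.0054 (adjusted p = 0.940). Of the 2326 genes called after Dox, 1050 (45.1%) were also called after siIGF2BP2, which is 25% of the siRNA calls, and 682 of the 1050 shared a sign. The difference between the effects was called for 2979 genes (26.1%; 13.7% higher, 12.4% lower), and CDKN1A, FAS, IL11, PLAU and MYC fell after siIGF2BP2 where they rose after Dox. The reagents also differ in duration, 72 hours of Dox and 48 hours of siRNA, and in their controls. HMGA1 fell in both, by 0.30 and 0.95, and CYR61 rose in both, by 0.58 and 0.28. Dox in sgAAVS1 cells also lowered HMGA1, by 0.36, and raised CYR61, by 0.41. For HMGA1 the difference between the Dox effects of sgIGF2BP2 and sgAAVS1 cells was not called (0.059, adjusted p = 0.536 in edgeR's test). Among the 40 libraries, siIGF2BP2 replicate 3 deviated most from its replicates (root mean square 0.15 on the log2 scale). Without that library, the difference between the effects was called for 2845 genes.

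Dox replicate 2 departed from the other Dox libraries, with its lowest genes among the mitochondrially encoded mRNAs. The 13 mitochondrially encoded mRNAs held 5.86% of its CPM, against 7.84% to 9.12% in the other 7 libraries and 6.99% to 9.12% in the other 39 of the series. MT-ND2, a subunit of complex I, stood at 4690, 5370, 5560 and 5740 CPM with DMSO and at 5650, 2830, 5710 and 4970 CPM with Dox. MT-CYB, of complex III, was at 3890 CPM in Dox replicate 2 and at 5440 to 6790 CPM in the other 7. MT-ND5, MT-ND4, MT-ATP6 and MT-ND1 completed the 6 genes furthest below the other Dox libraries (genes whose mean log2 CPM reached 4).

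The list of mitochondrially encoded mRNAs therefore depended on that library. With all 8 libraries none of the 13 was called in either direction by edgeR, DESeq2 or voom, with 1 higher and 1 lower at an unadjusted p under 0.05 (median −0.068). Without Dox replicate 2, 1 was higher (median 0.054). In the difference from sgAAVS1 cells, 0 were called with it and 3 higher without it.

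Nuclear genes of that library departed too, by less. The chi-square statistic per gene between replicates was 11.8 to 16.6 for the 3 pairs with Dox replicate 2 and 1.92 to 3.71 for the other 9 pairs within a group. With the mitochondrial mRNAs left out, these were 3.84 to 5.37 and 1.83 to 3.54. Over genes whose mean log2 CPM reached 4, the root mean square deviation from its replicates was 0.13 on the log2 scale. That ranked 2 of 40 from the highest, against 0.077 to 0.11 in the other 7. By another measure DMSO replicate 1 stood higher: 32.3% of its genes lay outside the range of the other 7 libraries. This share was 30.5% in Dox replicate 2 and 15.2% to 28.5% in the rest of the 8. Genes were also split by transcript length into 5 equal bins. In Dox replicate 2 the bin of the shortest had a median deviation of 0.055 from the mean of the 8 libraries. That of the longest had one of −0.034. In the other 7 these medians were −0.033 to 0.010 and −0.010 to 0.028. The genes furthest above the other Dox libraries were SELENOH, KREMEN2, KATNA1, DPM3, MPC1 and NDUFB7, of which NDUFB7, a nuclear complex I gene, stood at 129 CPM against 93.7 to 111 CPM. Its total, 17737761 counts, was the highest of the 4 Dox libraries. What sets the library apart was not tested.

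**Figure D5:**
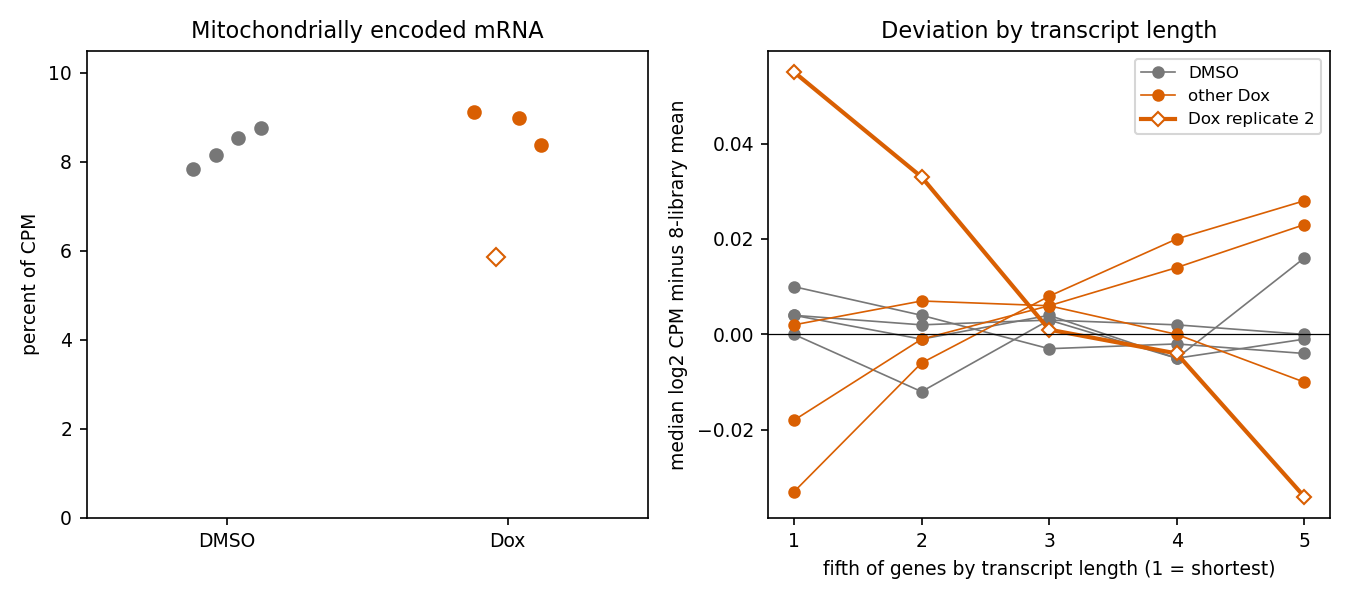
Left, share of CPM in the 13 mitochondrially encoded mRNAs in each library of sgIGF2BP2 cells (percent, axis from 0). Right, median deviation of log2 CPM from the 8-library mean in 5 bins of transcript length, 1 line per library (grey DMSO, orange Dox, open diamonds Dox replicate 2), in which Dox replicate 2 goes from 0.055 in the shortest bin to −0.034 in the longest.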

How the data were processed

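Poly(A) RNA was sequenced after the s4U treatment and alkylation of the SLAMseq protocol with a directional kit, per the labels' protocols. The authors deposited 1 table of unnormalized counts of reads per gene for 40 libraries. Submitters' processing notes name hg38, bcl2fastq 2.20.0.422 and STAR 2.7.5c; the counting tool, annotation and use of strand are not given in the sources used here. Newly made RNA was not separated. Of 19962 identifiers, 19847 matched GENCODE 29 (GRCh38), which gave names and positions.

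Genes were kept by edgeR's filterByExpr (11428 genes, 99.98% of counts; 4125 had no count). The main test was edgeR 4.0.16's quasi-likelihood test on all 40 libraries with 1 coefficient for each of the 10 groups and TMM scaling, Benjamini-Hochberg adjusted over all genes, in R 4.3.3; a gene is called under 0.05. The standard error is the size of the log2 fold change divided by the square root of F. The common biological coefficient of variation was 3.79%, a small spread between wells, at which small changes can be called. Replicates were separate wells, so p-values measure the spread between wells. Simulated counts were used to test the script. Alternatives were limma 3.58.1 voom with quality weights, DESeq2 1.42.0, RLE scaling, other filters, a 1.2-fold test, thinning, robust dispersion, a GC and length offset, a replicate block, the 8 libraries alone and leaving out each library.

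The members and the 26 gene lists were chosen with earlier results of these data known. Named genes are the 12 greatest rises and 12 greatest falls among calls whose groups did not overlap and whose mean log2 CPM reached 2. To these were added up to 3 such genes per list, fixed genes (IGF2BP1, IGF2BP2, IGF2BP3, CDKN1A, MDM2, HSPA5, XBP1, ATF4, DDIT3, MYC), up to 4 each way per difference, up to 3 each way at the 3q end, and the 6 highest and 6 lowest genes of Dox replicate 2 (mean log2 CPM of at least 4). Other list members were named as examples after their values were seen.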

Additional observations from a re-analysis of the deposited data

Results flagged for a closer look

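In 8 of 190 groups of 4 libraries, 1 library lay far from the other 3 of its group (gap over range above Dixon's 95% critical value); chance alone gives about 1 in 20 such groups. MYOF was at 8.62 CPM in Dox replicate 4, against 7.3 to 7.42 CPM in the other 3. MKI67 was at 347 CPM in Dox replicate 2, against 446 to 450 CPM in the other 3. FAS was at 29.5 CPM in Dox replicate 3, against 33.2 to 33.9 CPM in the other 3. FOXM1 was at 240 CPM in DMSO replicate 1, against 261 to 266 CPM in the other 3. MMP15 was at 7.61 CPM in DMSO replicate 1, against 6.26 to 6.45 CPM in the other 3. ADAM9 was at 65.2 CPM in DMSO replicate 3, against 67.8 to 68.3 CPM in the other 3. C21orf58 was at 14.1 CPM in DMSO replicate 2, against 11.2 to 11.3 CPM in the other 3. C21orf58 was at 10.1 CPM in Dox replicate 3, against 8.69 to 8.89 CPM in the other 3.

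The test of the difference between the Dox effects of sgIGF2BP2 and sgAAVS1 cells passed for 35 named genes, each with an edgeR adjusted p of at most 0.0468. On the log2 scale the effect was higher in sgIGF2BP2 cells for ACTA2 (1.18), PLAU (1.18), UNC5A (1.08), PDP1 (1.03), REEP6 (0.97), BTG2 (0.92), TMSB4X (0.91), DUSP5 (0.80) and BBC3 (0.71). It was also higher for SESN1 (0.64), ERRFI1 (0.60), MYC (0.59), NFKBIZ (0.54), MDM2 (0.38), TM7SF2 (0.37), CDKN1A (0.34), HLA-E (0.28) and ITGA3 (0.28). It was also higher for CYR61 (0.17). On the log2 scale the effect was lower in sgIGF2BP2 cells for IGF2BP2 (−1.44), TAGLN (−0.71), CALD1 (−0.51), KIF24 (−0.48), POLE2 (−0.44), FAM111B (−0.44), CENPJ (−0.41), IER5L (−0.34) and IGF2BP3 (−0.29). It was also lower for CCNA2 (−0.27), MKI67 (−0.26), RFC4 (−0.25), EXO1 (−0.22), FOXM1 (−0.19), HNRNPU (−0.16) and HNRNPA2B1 (−0.15). ITGA3 lies beyond SPOP on 17q, where genes of the sgAAVS1 line had a median of −0.17 after Dox.

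The test of the difference between the Dox effects of sgIGF2BP2 and sgIGF2BP3 cells passed for 35 named genes, each with an edgeR adjusted p of at most 0.046. On the log2 scale the effect was higher in sgIGF2BP2 cells for IGF2BP3 (1.44), ACTA2 (1.39), HDAC9 (0.92), DDIT4 (0.77), SESN1 (0.73), NT5E (0.71), REEP6 (0.65), BBC3 (0.60) and BTG2 (0.60). It was also higher for MDM2 (0.56), FAS (0.55), PDP1 (0.55), DUSP5 (0.44), IL11 (0.43), CDKN1A (0.41), NFKBIZ (0.39), CYR61 (0.38) and MSMO1 (0.38). It was also higher for FOSB (0.35). On the log2 scale the effect was lower in sgIGF2BP2 cells for IGF2BP2 (−1.39), TAGLN (−0.68), EME1 (−0.58), FAM111B (−0.58), IL17RB (−0.44), EXO1 (−0.37), XRCC2 (−0.31), FOXM1 (−0.30) and HMGA1 (−0.29). It was also lower for PHGDH (−0.28), RFC4 (−0.28), CALD1 (−0.27), MKI67 (−0.26), HNRNPU (−0.20), LDHA (−0.20) and TRA2B (−0.18). HDAC9, CALD1, XRCC2 and IGF2BP3 itself lie on chromosome 7, which is cut in sgIGF2BP3 cells. XRCC2 lies far from the cut gene, at 152644779 to 152676165 against 23310209 to 23470467 for IGF2BP3. The differences were positive for HDAC9 and IGF2BP3 and negative for CALD1 and XRCC2. Whether position bears on them was not tested.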

How the results depend on the processing

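Over 20 alternatives, the change of IGF2BP2 stayed at −1.39 to −1.28 and the median of the genes toward the 3q end at −0.10 to −0.060. When the test asked for a change beyond 1.2-fold, 117 genes were called (108 higher, 9 lower). The same test left 25 genes for the difference from sgAAVS1 cells, 6 for that from sgIGF2BP3 cells and 558 for that from siIGF2BP2. The GC and length offset raised the lower calls to 2139 (2135 with the replicate block as well) and the difference from sgIGF2BP3 cells from 333 to 709 (710 with the block), and thinning to the smallest total gave 211 for the latter. The cause was not tested. The log2 fold change of ATF4 turned from 0.025 to −0.022 under the offset and −0.021 with the block added, and none of the 3 was called. Leaving out 1 library at a time gave 1850 to 2168 calls, 534 to 1156 for the difference from sgAAVS1 cells and 262 to 369 for that from sgIGF2BP3 cells. Same-numbered DMSO and Dox libraries did not deviate together (correlations −0.060 to 0.020, and none was closest to its own number), and a replicate block gave 2314 calls. Of 89 named genes called in the main test, 29 were called under every alternative and 48 lost the call only in the 1.2-fold test. Without Dox replicate 2, AKAP5, CYP27B1, TRIM21, TAGLN and XBP1 were not called.

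Of 92 named genes, 20 share bases with a tested gene on the opposite strand and 4 on the same strand. Wells of 1 sorted line were compared, so other lines were not measured, and low genes carry wide errors at this depth.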
